A study of Homo sapiens with 4 samples.

Results

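The enzymes that make serine and pass its carbon to folate were followed in Huh7 cells with and without a guide against METTL16. They comprise PHGDH, PSAT1 and PSPH of serine synthesis, the serine hydroxymethyltransferases SHMT1 and SHMT2, and the folate enzymes MTHFD1, MTHFD1L, MTHFD2, ALDH1L1 and ALDH1L2. These 10 genes were picked by symbol, with earlier results of these data known, among the 18806 gene symbols of the deposited table. All 10 were listed and 9 had a mean of at least 1 TPM over the 4 libraries, the minimum for a test. In METTL16 KO, 7 of these 9 genes were lower than in sgNS, PSPH was higher, and MTHFD1L did not pass the test (adjusted p under 0.05 by limma), where 25.6% of all genes tested were called lower and 50.1% higher, 75.7% in all. The largest falls were those of the mitochondrial enzymes ALDH1L2 and SHMT2 and of PHGDH, whose mean levels changed by -72.8%, -40.6% and -28.3%.

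Huh7 cells are an established line of human liver cancer cells. A single clone of Huh7 that expressed Cas9 received, by lentivirus, either a non-targeting guide (sgNS, 2 libraries) or a guide against METTL16 (METTL16 KO, 2 libraries), and the cells were selected with hygromycin B. METTL16 is an RNA m6A methyltransferase. The labels give the genotype of sgNS as wild type and that of the other group as METTL16 knockdown, while the paper calls it KO. All values thus come from 1 clone. The paper's text and captions do not name the guide used for these libraries or say whether both METTL16 KO libraries had the same guide. RNA was measured by RNA-seq, and values are TPM, a share of 1000000 per library that is corrected for transcript length, so that levels of different genes can be compared. Read counts and depth are unknown, so no counting error can be given.

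METTL16 itself had 26.29 and 25.14 TPM in sgNS against 17.62 and 18.75 TPM in METTL16 KO (log2 fold change -0.50, standard error 0.062, adjusted p 2.4e-05 by limma). The groups did not overlap, and the transcript was lowered and not absent. RNA does not measure how much METTL16 protein was lost, which the paper examined in Huh7 cells by Western blotting. In each library all 10 hepatocyte and hepatoma markers examined were at 159.96 TPM or more. Their summed level was 18671 to 18753 TPM in sgNS and 31971 to 32424 TPM in METTL16 KO. Of the 10, 8 were higher and 2 lower, against 50.1% and 25.6% of all genes tested. After median-ratio scaling, described below, 7 were higher and 2 lower, against 36.4% and 36.5%. Of 12 markers of fibroblasts, endothelium and leukocytes, 6 to 8 were under 1 TPM in each library. Of the 5 tested, 2 were higher and 3 lower, and after median-ratio scaling 1 was higher and 3 lower. The same shares over all genes apply. The endothelial markers CDH5 and VWF were at 0.04 TPM or less, but PECAM1 had 5.14 and 4.74 TPM in sgNS against 3.09 and 2.70 TPM in METTL16 KO (-0.75, adjusted p 2.5e-04). CD68, a macrophage marker, had 3.40 and 2.72 TPM in sgNS against 8.86 and 8.57 TPM in METTL16 KO (1.49, adjusted p 9.4e-07). These 12 markers without LYZ summed to 11.5 to 13.3 TPM in sgNS and 16.7 to 18.2 TPM in METTL16 KO, while LYZ was listed at 1510 and 1553 TPM and at 909 and 924 TPM. The part of these shifts in the results below was not tested. In RNA from whole cultures, fewer cells of a kind and less RNA per cell cannot be told apart.

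Serine is made from the glycolytic intermediate phosphoglycerate. PHGDH oxidises it, PSAT1 moves an amino group onto the product from glutamate, and PSPH removes the phosphate. SHMT1 in the cytosol and SHMT2 in mitochondria then split serine into glycine and a carbon unit carried by tetrahydrofolate. The MTHFD enzymes move this unit between oxidation states, and in mitochondria MTHFD2 and MTHFD1L turn it into formate that leaves for the cytosol. There it feeds purine, thymidylate and methionine synthesis. ALDH1L1 and ALDH1L2 instead burn the unit to CO2 and make NADPH. The pathway is known for its activity in proliferating and tumor cells, and ATF4 and MYC are known regulators of many of its genes.

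Each gene was tested by limma on log2(TPM + 0.1) over the 11971 genes whose mean reached 1 TPM, with Benjamini-Hochberg adjustment over all of them. All fold changes below are METTL16 KO against sgNS of these log2 values, where the pseudocount shrinks the change of low genes. For any 1 gene, an exact two-sided permutation test over these 4 libraries can reach p = 0.333 at best, so the adjusted p-values rest on the spread that limma pools across genes. Calls were common over all genes, and against the 50.1% called higher and the 25.6% called lower stand 1 and 7 of the 9 enzymes. The median fold change was -0.17 for the 9 enzymes and 0.16 for all genes tested, and relative to the latter the enzymes ran from -1.99 (ALDH1L2) to 0.095 (PSPH). After median-ratio scaling of the libraries, which brings the typical gene to 0, 1 enzyme was higher and 8 were lower, and the calls over all genes were 36.4% higher and 36.5% lower. Of all calls, 66.2% were higher as deposited, 49.9% after this scaling and 51.0% after quantile normalization, where again 1 enzyme was higher and 8 were lower, against 36.9% and 35.5% of all genes tested. In all 9 enzymes the 2 groups did not overlap, as was the case in 87.4% of all genes tested.

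**Figure D1:**
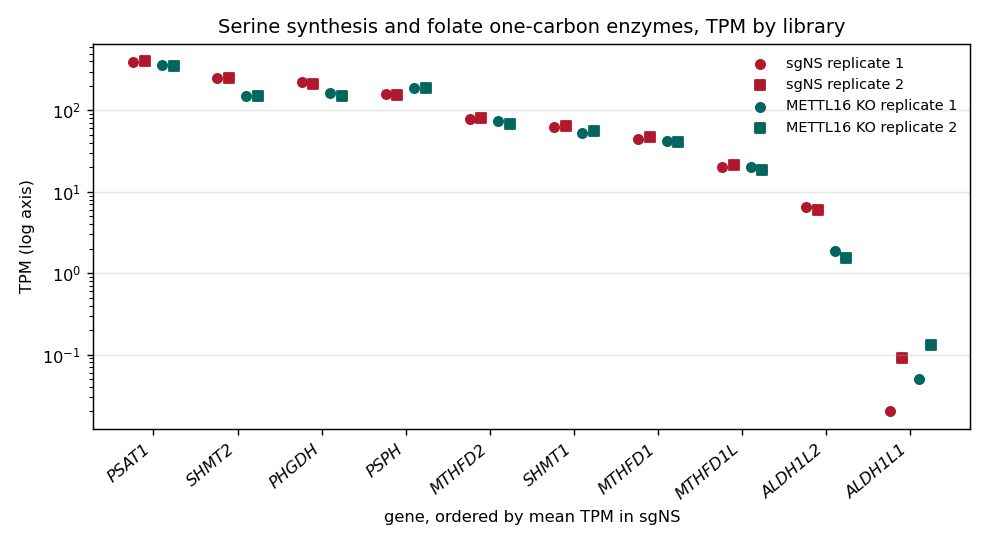
TPM (log axis) of the 10 enzymes in each of the 4 libraries, ordered by mean level in sgNS, with circles for replicate 1 and squares for replicate 2. PSAT1 lay highest and ALDH1L1 lowest in all 4 libraries, and the clearest gaps between the groups were those of SHMT2, PHGDH and ALDH1L2.

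In sgNS the enzymes stood in the order PSAT1, SHMT2, PHGDH, PSPH, MTHFD2, SHMT1, MTHFD1, MTHFD1L, ALDH1L2 and ALDH1L1, and no neighbours in this order overlapped between libraries. In METTL16 KO PSPH moved up to the second place, ahead of PHGDH and SHMT2. PHGDH (151.49 to 161.99 TPM) and SHMT2 (148.89 to 151.92 TPM) overlapped in their ranges over the libraries, although PHGDH was above SHMT2 within each of them, and the other neighbours did not overlap. The 10 enzymes together took 1235 and 1239 TPM in the sgNS libraries and 1051 and 1027 TPM in the METTL16 KO libraries, 16.0% less on average. The mitochondrial enzymes SHMT2, MTHFD2, MTHFD1L and ALDH1L2 summed to 358 and 361 TPM in sgNS and 247 and 237 TPM in METTL16 KO. Their mean summed level changed by -32.6%, that of the 3 cytosolic enzymes SHMT1, MTHFD1 and ALDH1L1 by -11.6% and that of the 3 serine synthesis enzymes by -8.91%. Most of the mitochondrial fall came from SHMT2, the most abundant of the 4.

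PHGDH, the entry enzyme of serine synthesis (chromosome 1, 119648411 to 119744218, plus strand, GRCh38), had 223.44 and 213.89 TPM in sgNS against 161.99 and 151.49 TPM in METTL16 KO. Both METTL16 KO libraries were low, with a gap to sgNS wider than the spread within either group, and the log2 fold change came to -0.48 (standard error 0.042, 95% interval -0.57 to -0.39, adjusted p 1.5e-06). PSAT1, the aminotransferase of the second step (chromosome 9, 78297125 to 78330093, plus strand), was the most abundant of the 10, at 388.12 and 399.08 TPM in sgNS against 360.66 and 351.74 TPM in METTL16 KO. The groups did not overlap, but the fall was small, at -0.14 (standard error 0.032, interval -0.21 to -0.074, adjusted p 0.0017). PSPH, the phosphatase of the last step (chromosome 7, 56011051 to 56051604, minus strand), had 160.29 and 154.08 TPM in sgNS against 186.04 and 189.91 TPM in METTL16 KO. It was the only one of the 9 enzymes tested that rose, by 0.26 (standard error 0.037, interval 0.18 to 0.34, adjusted p 7.1e-05). Relative to the median of all genes this rise was 0.095, and after median-ratio scaling it was 0.093 (adjusted p 0.040), as the median of all genes was 0.16 higher in the deposited values. RefSeq lists 4 pseudogenes of PSAT1 and 1 of PSPH by symbol, none of which is a row of the table, and reads could have been split with them.

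The serine synthesis enzymes thus moved apart. Within a library, the ratio of PHGDH to PSPH was 1.39 in both sgNS libraries and 0.871 and 0.798 in METTL16 KO, so that PHGDH was above PSPH in sgNS and below it in METTL16 KO. The ratio of PHGDH to PSAT1 was 0.576 and 0.536 in sgNS and 0.449 and 0.431 in METTL16 KO. PSAT1 was 2.42 and 2.59 times PSPH in sgNS and 1.94 and 1.85 times PSPH in METTL16 KO. A ratio within a library is not moved by a single scaling factor. These 3 ratios were among 5 chosen after their values were seen, and each gave p = 0.333 in an exact two-sided permutation test (0.333 adjusted over the 5), the smallest that 4 libraries allow.

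Stretches before the start of PSAT1, SHMT1 and MTHFD2 are shown because the CCAAT box is present in each. It is a common promoter element bound by the factor NF-Y. These 3 enzymes were called lower, with log2 fold changes of -0.14, -0.21 and -0.17. CCAAT was also found in windows of PHGDH, which fell more, and of MTHFD1 and MTHFD1L, which had smaller changes. These are not shown. The sequences are from RefSeq on GRCh38.p14, on the strand of the gene, with capitals on CCAAT or its reverse complement and, in SHMT1, also on the GC box. The stretch of MTHFD2 precedes a start in RefSeq that lies inside the span of the gene in GENCODE, so it is a stretch before an internal start there.

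PSAT1, chr9:78297005-78297124, plus strand: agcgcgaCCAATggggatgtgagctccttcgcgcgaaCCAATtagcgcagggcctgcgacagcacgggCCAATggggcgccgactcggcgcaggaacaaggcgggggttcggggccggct
SHMT1, chr17:18363564-18363683, minus strand: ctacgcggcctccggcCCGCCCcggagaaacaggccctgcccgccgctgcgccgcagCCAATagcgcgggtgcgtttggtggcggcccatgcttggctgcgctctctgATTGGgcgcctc
MTHFD2, chr2:74198490-74198609, plus strand: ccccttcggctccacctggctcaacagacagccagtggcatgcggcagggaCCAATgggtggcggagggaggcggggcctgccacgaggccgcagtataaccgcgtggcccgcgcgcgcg

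Promoter windows of 300 bases, from 250 before to 50 after a start, were given for 7 of the 10 enzymes, that is for all but PSPH, SHMT2 and ALDH1L2. The windows of PHGDH, MTHFD1, MTHFD1L, MTHFD2 and ALDH1L1 lie wholly inside the span of the gene in GENCODE, so their starts are internal there. Each motif below was searched on both strands, and a gene counted where any of its windows held the motif. CCAAT was found in 6 of the 7 (all but ALDH1L1), against 39.7% of all 27305 genes with a window and 43.7% of the 9331 tested genes with a window. The GC box GGGCGG was found in 4 of the 7 (PSAT1, SHMT1, MTHFD1L and ALDH1L1), against 48.3% and 77.0%. The E-box CACGTG, the palindrome bound by MYC with MAX, was found in MTHFD1 and MTHFD1L, against 8.77% and 12.7%. TGATGNAA, the composite element bound by ATF4 with C/EBP factors, was found in MTHFD1L alone, against 4.46% and 2.84%. TGACNNNGC, the core of the antioxidant response element bound by NFE2L2, was found in MTHFD2 alone, against 4384 of the 27305 genes and 19.8%. These are matches of letters in a window and not binding sites. The E-box of MTHFD1 and the composite element of MTHFD1L are shown with the motif in capitals. These motifs were picked because factors described further on are known to bind them elsewhere, and binding at these sites was not tested. All 30 bases of both lie in exons annotated by GENCODE, downstream of the first base of the gene.

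MTHFD1, chr14:64388323-64388352, plus strand: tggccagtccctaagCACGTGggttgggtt
MTHFD1L, chr6:150866346-150866375, plus strand: gccgccggctcTGATGCAAtcgcgccgggc

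SHMT2, the mitochondrial enzyme that splits serine (chromosome 12, 57229573 to 57234935, plus strand), had 253.13 and 252.88 TPM in sgNS against 151.92 and 148.89 TPM in METTL16 KO. The replicates lay close together in both groups, and both METTL16 KO libraries were far below sgNS. The log2 fold change reached -0.75 (standard error 0.034, interval -0.82 to -0.68, adjusted p 8.9e-09), and 6.67% of all genes tested had a lower fold change. SHMT1, its cytosolic counterpart (chromosome 17, 18327860 to 18363563, minus strand), had 61.76 and 64.17 TPM in sgNS against 53.17 and 55.66 TPM in METTL16 KO. It fell by 0.21 (standard error 0.047, interval -0.31 to -0.11, adjusted p 0.0018). SHMT1 shares 197 exonic bases with SMCR8 on the opposite strand, which had 27.61 and 25.53 TPM in sgNS against 42.41 and 42.69 TPM in METTL16 KO. The kit marks strand, but whether strand was used in quantification is not given in the sources used here.

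The ratio of SHMT2 to SHMT1 within a library was 4.10 and 3.94 in sgNS and 2.86 and 2.67 in METTL16 KO. The mitochondrial transcript stayed the more abundant in all 4 libraries, by a smaller factor in METTL16 KO. The log2 ratio fell by 0.54, and the exact two-sided permutation p was 0.333, the smallest possible (0.667 adjusted over 4 pairs of enzymes). SHMT2 was also 1.13 and 1.18 times PHGDH in sgNS and 0.938 and 0.983 times PHGDH in METTL16 KO, a ratio chosen after its values were seen (exact permutation p 0.333, also when adjusted over the 5 ratios so chosen).

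**Figure D2:**
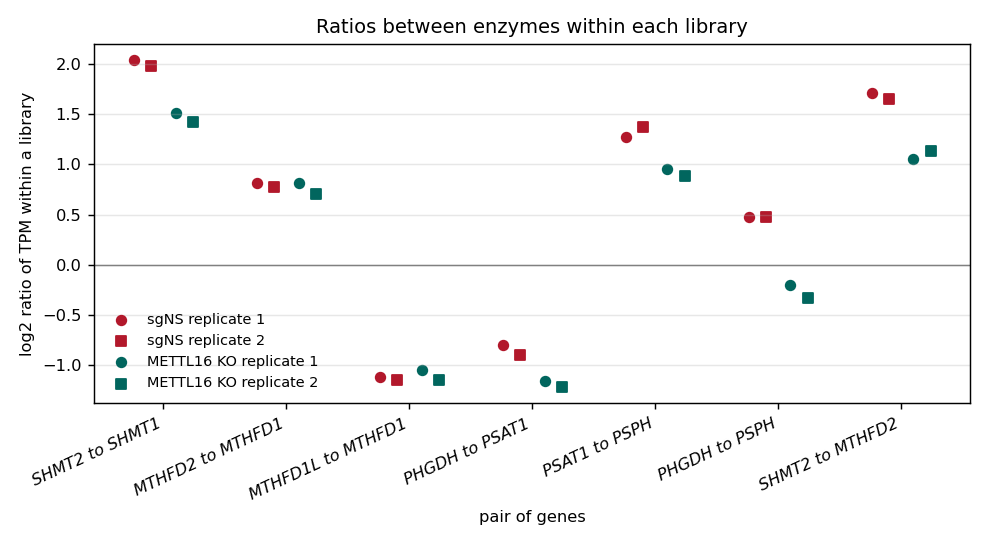
log2 ratio of TPM between 2 enzymes within each library, with sgNS in red, METTL16 KO in green, circles for replicate 1 and squares for replicate 2, and the line at 0 marking equal TPM. The groups were apart for SHMT2 to SHMT1 and for the ratios of PHGDH, PSAT1 and PSPH, and PHGDH to PSPH crossed 0, while MTHFD2 to MTHFD1 and MTHFD1L to MTHFD1 overlapped.

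MTHFD1, the cytosolic enzyme with 3 activities on folate (chromosome 14, 64388031 to 64463457, plus strand), had 44.12 and 47.01 TPM in sgNS against 41.52 and 41.43 TPM in METTL16 KO. Its fall of 0.13 on the log2 scale passed the test narrowly (standard error 0.051, interval -0.25 to -0.023, adjusted p 0.031). Without sgNS replicate 2, METTL16 KO replicate 1 or METTL16 KO replicate 2 the call was lost, with log2 fold changes of -0.089, -0.14 and -0.13 and adjusted p of 0.131, 0.136 and 0.144 by limma. In such fits 1 group holds a single library, which is assumed to vary like the other group. MTHFD2, the mitochondrial dehydrogenase and cyclohydrolase (chromosome 2, 74186172 to 74217565, plus strand), had 77.62 and 80.53 TPM in sgNS against 73.25 and 67.75 TPM in METTL16 KO. The log2 fold change came to -0.17 (standard error 0.049, interval -0.27 to -0.058, adjusted p 0.0093), and without METTL16 KO replicate 2, its lowest library, it was -0.11 with an adjusted p of 0.147. RefSeq lists 7 pseudogenes of MTHFD2 and 1 each of MTHFD1 and SHMT1 by symbol, and none is a row of the table. MTHFD2 also shares 1324 exonic bases with SLC4A5 on the opposite strand, which was at 1.71 to 2.87 TPM.

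MTHFD1L, the mitochondrial synthetase that releases formate (chromosome 6, 150865679 to 151101887, plus strand), had 20.44 and 21.28 TPM in sgNS against 20.14 and 18.73 TPM in METTL16 KO. The lower sgNS and the higher METTL16 KO library lay close together, and the log2 fold change of -0.10 did not pass the test (standard error 0.064, interval -0.24 to 0.039, adjusted p 0.17). Relative to the typical gene it did, at -0.27 after median-ratio scaling (adjusted p 0.0031) and -0.29 after quantile normalization (adjusted p 0.0026). The 3 MTHFD enzymes kept their proportions more closely than the SHMT pair. MTHFD2 was 1.76 and 1.71 times MTHFD1 in sgNS and 1.76 and 1.64 times in METTL16 KO, and MTHFD1L was 0.463 and 0.453 times MTHFD1 in sgNS and 0.485 and 0.452 times in METTL16 KO. In both pairs the groups overlapped (log2 differences -0.031 and 0.032, exact permutation p 1.0 each). SHMT2, which supplies MTHFD2 with its substrate, was 3.26 and 3.14 times MTHFD2 in sgNS and 2.07 and 2.20 times in METTL16 KO, a ratio chosen after its values were seen (log2 difference -0.58, exact permutation p 0.333, also adjusted over the 5).

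ALDH1L2, the mitochondrial enzyme that oxidises formyl-tetrahydrofolate with NADP (chromosome 12, 105019784 to 105107643, minus strand), had 6.52 and 5.96 TPM in sgNS against 1.88 and 1.52 TPM in METTL16 KO. It had the largest fold change of the 10 enzymes, -1.82 (standard error 0.14, interval -2.14 to -1.51, adjusted p 6.9e-07), and the gap between the groups was far wider than the spread within them. Only 0.501% of all genes tested had a lower fold change. With an added fold threshold of 1 on the log2 scale, ALDH1L2 was the only enzyme called, against 3.77% of all genes called lower and 7.7% called higher. At this level the size depends on the pseudocount, and it was -1.43 with a pseudocount of 1. ALDH1L1, the cytosolic counterpart (chromosome 3, 126103562 to 126197994, minus strand), had 0.02 and 0.09 TPM in sgNS against 0.05 and 0.13 TPM in METTL16 KO. The groups overlapped, the gene was under the minimum of 1 TPM, and it was not tested. ALDH1L2 was thus above ALDH1L1 in all 4 libraries, by 326.0 and 66.2 times in sgNS and 37.6 and 11.7 times in METTL16 KO. These ratios rest on hundredths of a TPM in the denominator (exact permutation p 0.333, 0.667 adjusted over the 4 pairs).

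**Figure D3:**
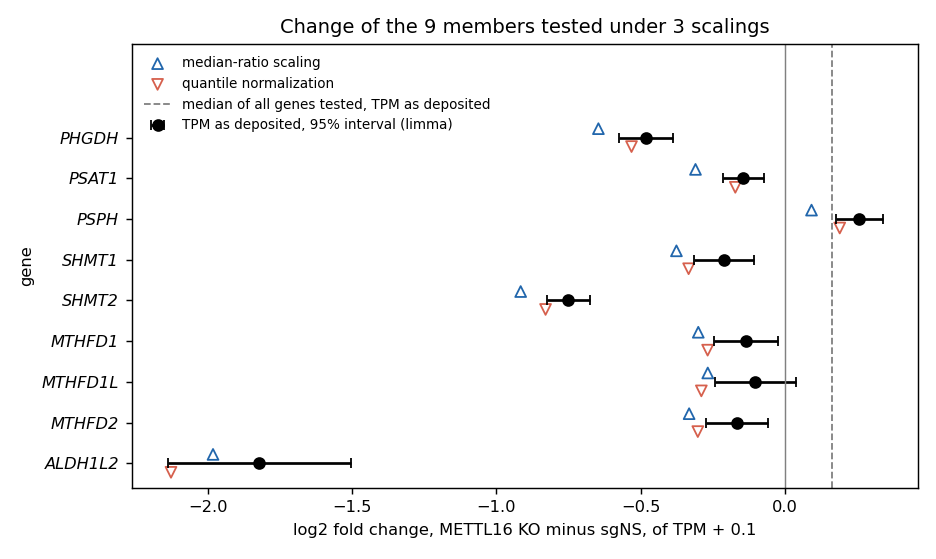
log2 fold change of TPM + 0.1, METTL16 KO minus sgNS, of the 9 enzymes tested, with black points and bars for the deposited TPM and its 95% interval from limma, open triangles for 2 other scalings, and a dashed line at 0.16, the median of all genes tested. PSPH alone lay above 0 under all 3 scalings, only the interval of MTHFD1L crossed 0, and ALDH1L2, SHMT2 and PHGDH lay lowest.

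The other genes of serine and folate metabolism were counted over 6 lists with 38 genes, of which 34 were tested. In METTL16 KO 17 were higher, 12 were lower and 5 did not pass, with a median log2 fold change of 0.12. After median-ratio scaling 12 were higher and 15 lower. Over all genes tested the shares were 50.1% higher and 25.6% lower as deposited and 36.4% and 36.5% after that scaling, so no result about these genes as a set is read from the counts.

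A list of 6 genes covered folate carriers and the enzymes that add or remove the glutamates that keep folate in cells. Of these, 5 were tested, 4 were higher and 1 was lower, with a median of 0.42. Under both other scalings 3 were higher and 1 lower. SLC46A1, the proton-coupled folate transporter, rose by 0.61 (adjusted p 1.6e-05), and FPGS, which traps folate in cells by adding glutamates, rose by 0.58 (adjusted p 2.5e-06). SLC19A1, the reduced folate carrier, fell by 0.46 (adjusted p 1.5e-04). It shares 1563 exonic bases with the more abundant COL18A1 on the opposite strand. COL18A1 had 38.39 and 31.05 TPM in sgNS against 28.05 and 26.4 TPM in METTL16 KO. FOLR1, a folate receptor, was listed at 0 in all 4 libraries.

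Of 7 further folate enzymes, 6 were tested, 5 were higher, 0 were lower and 1 did not pass, with a median of 0.38. After median-ratio scaling and after quantile normalization 4 were higher and 1 lower. MTHFS, which brings the storage form of formyl-tetrahydrofolate back into the cycle, had 5.11 and 5.42 TPM in sgNS against 34.95 and 37.07 TPM in METTL16 KO (log2 fold change 2.75, standard error 0.071, adjusted p 1.6e-10). It ranked 107th from the highest of the 11971 genes tested. Yet MTHFS shares 555 exonic bases on the same strand with the read-through gene ST20-MTHFS, which went the other way, from 16.73 and 17.75 TPM to 4.91 and 4.34 TPM. The 2 rows summed to 21.84 and 23.17 TPM in sgNS and 39.86 and 41.41 TPM in METTL16 KO, a mean 1.81 times that of sgNS, and how RSEM shared reads between them is not known. MTHFD2L, a mitochondrial relative of MTHFD2, rose by 0.53 (adjusted p 0.0015), and MTR, which uses methylated folate to make methionine, rose by 0.38 (adjusted p 4.9e-04). MTHFD2L was at 4.42 and 5.28 TPM in sgNS against 7.38 and 6.66 TPM in METTL16 KO, far under MTHFD2 in every library. FTCD, a liver enzyme of histidine breakdown, was at 0.39 TPM or less and was not tested.

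ATIC and GART use formyl-tetrahydrofolate in purine synthesis. ATIC had 114.63 and 114.74 TPM in sgNS against 60.28 and 59.37 TPM in METTL16 KO (log2 fold change -0.94, adjusted p 5.8e-09). GART was at 60.6 and 59.74 TPM and at 62.68 and 64.07 TPM and did not pass (0.075, adjusted p 0.14). The 4 genes of the glycine cleavage system, which draws a carbon unit from glycine in mitochondria, were split. GLDC rose by 0.67 (adjusted p 1.1e-06) and DLD by 0.21 (adjusted p 0.0014), while GCSH fell by 0.36 (adjusted p 1.1e-05) and AMT by 0.26 (adjusted p 7.4e-04). After median-ratio scaling DLD did not pass (adjusted p 0.39).

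**Figure D4:**
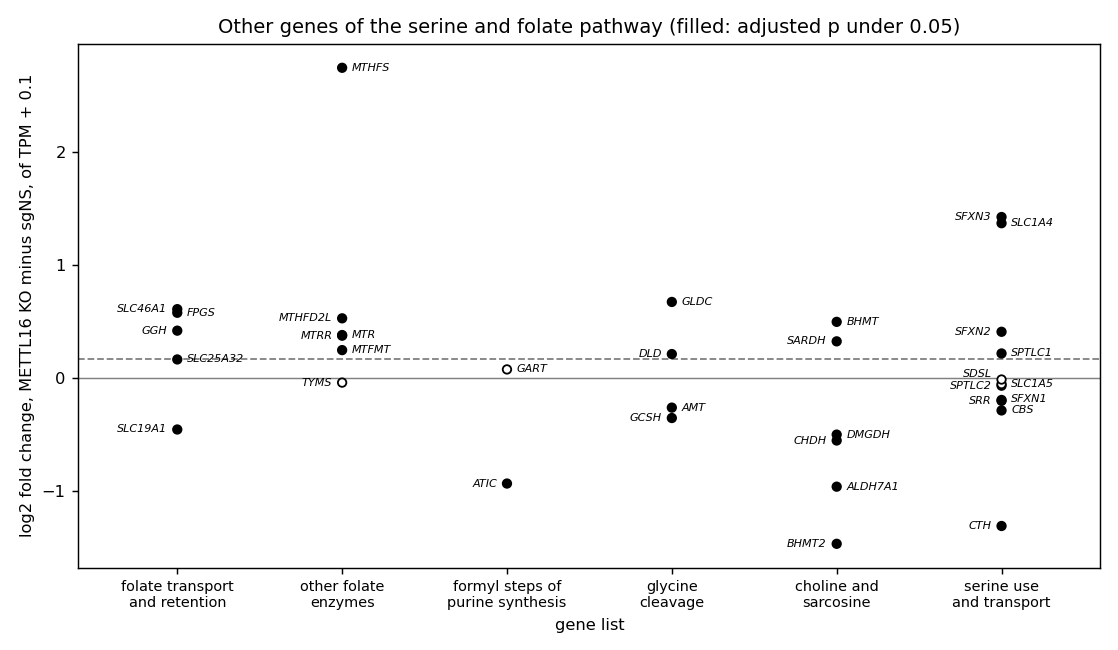
log2 fold change of TPM + 0.1, METTL16 KO minus sgNS, of the 34 other genes tested in 6 lists of serine and folate metabolism, 1 point a gene, filled where limma's adjusted p was under 0.05. The dashed line at 0.16 is the median of all genes tested, and MTHFS lay highest while BHMT2 and CTH lay lowest.

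Of 7 genes listed around choline and sarcosine, whose breakdown also yields carbon units, 6 were tested, 2 were higher and 4 were lower. Not all of the 7 are steps of that breakdown, BHMT2 and GNMT among them. The median was -0.53, and 1 was higher and 4 were lower under both other scalings. BHMT2, a homocysteine methyltransferase, had 136.67 and 133.90 TPM in sgNS against 50.90 and 46.57 TPM in METTL16 KO (log2 fold change -1.47, adjusted p 9.3e-10). ALDH7A1, which oxidises betaine aldehyde among other substrates, fell by 0.97 (adjusted p 8.8e-08), and CHDH, the choline dehydrogenase, fell by 0.56 (adjusted p 3.7e-05). GNMT, a glycine methyltransferase of normal liver, was at 0.09 TPM or less. Of 12 genes that use or carry serine, 11 were tested, 4 were higher, 4 were lower and 3 did not pass, with a median of -0.055. After median-ratio scaling 3 were higher and 6 lower, and after quantile normalization 3 and 7. SLC1A4, a plasma membrane transporter of serine and other neutral amino acids, rose by 1.37 (adjusted p 1.8e-08), and SFXN3, a mitochondrial serine carrier, rose by 1.43 (adjusted p 4.1e-08). CTH, the lyase that ends the route from serine and homocysteine to cysteine, had 21.85 and 22.34 TPM in sgNS against 8.95 and 8.70 TPM in METTL16 KO (-1.31, adjusted p 2.4e-08). SDS, a serine dehydratase, was at 0.24 TPM or less.

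Of the factors known to act on these genes, 4 were tested, all 4 were higher and 0 were lower, and 2 stayed higher after median-ratio scaling. Over all genes tested 50.1% were higher and 25.6% lower as deposited, and 36.4% and 36.5% after that scaling. ATF4, the stress-induced activator of serine synthesis genes, had 612.67 and 602.35 TPM in sgNS against 646.49 and 664.18 TPM in METTL16 KO (0.11, adjusted p 0.0054), but after median-ratio scaling its value was -0.056 (adjusted p 0.11). MYC was at 68.22 and 65.89 TPM in sgNS against 111.69 and 108.92 TPM in METTL16 KO, a rise of 0.72 (adjusted p 6.5e-08). From gene set enrichment analysis of RNA-seq in Huh7 cells, the paper reports MYC targets as suppressed in METTL16 KO. The activity of MYC was not tested here. NFE2L2, the regulator of the antioxidant response, rose by 0.63 (adjusted p 8.5e-08) and shares 3509 exonic bases with HNRNPA3 on the opposite strand. KDM4C, a histone demethylase linked to serine synthesis genes, rose by 0.21 (adjusted p 0.028), which did not pass after median-ratio scaling (adjusted p 0.58). EHMT2 was not analysed here. Of 10 genes of the ATF4 programme other than the enzymes, ATF4 itself included, 8 were higher, 1 was lower and 1 did not pass, with a median of 0.57. The shares over all genes given above apply here too. After median-ratio scaling 7 were higher and 2 lower. DDIT3, a factor of the stress response, rose by 1.26 (adjusted p 4.7e-09). ATF5, a relative of ATF4, rose by 1.02 (adjusted p 1.0e-07), and CHAC1, which degrades glutathione, by 0.75 (adjusted p 1.2e-05). ATF5 shares 565 exonic bases with the more abundant NUP62 on the opposite strand. TRIB3 was lower (-0.21, adjusted p 4.1e-04), and ASNS did not pass (-0.027, adjusted p 0.57). After median-ratio scaling both were lower, at -0.37 (adjusted p 6.2e-06) and -0.19 (adjusted p 0.0020). PHGDH, PSAT1, SHMT2, MTHFD2 and ALDH1L2, which are also known targets of ATF4, were lower in the same libraries, and PSPH, another, was higher.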

How the data were processed

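RNA-seq of 4 Huh7 libraries, 2 sgNS and 2 METTL16 KO, was analysed, with groups from the sample titles. According to the methods and the submitters' processing notes, the authors prepared libraries with a stranded mRNA kit (the labels also name ribosomal RNA depletion), used Cutadapt for trimming, STAR for alignment to GRCh38 and RSEM for quantification. Versions, annotation and use of strand are not given in the sources used here. The deposited values sum to about 1000000 per library and have 2 decimals, so they were treated as TPM, although the methods call them RPKM. TPM keeps no counts, so depth is unknown and no count test was run. No sample or column was left out.

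From these values log2(TPM + 0.1) was computed, and genes with a mean of at least 1 TPM were tested with limma 3.58.1 in R 4.3.3 (lmFit, eBayes with trend, two-sided, Benjamini-Hochberg over 11971 genes, no block). The fit was tested on simulated data. Ratios within a library were compared by exact permutation tests. Python 3.11.15, numpy 2.4.6, pandas 2.3.3, scipy 1.17.1 and matplotlib 3.10.9 were used. The enzymes and gene lists were chosen with earlier results of these data known. Named were all 10 enzymes, METTL16 and up to 3 called genes with the largest change per further list. Genes at 0 or under the filter, ATF4, MYC, and all genes of lists of 4 or fewer were also named. CDH5, VWF, PECAM1, CD68 and LYZ of the marker lists, TRIB3, ASNS and all overlap partners were named after their values were seen. Some genes of the folate list are not reported here and are left out of its counts. Positions, exon overlaps and sites are from GENCODE release 44 and RefSeq on GRCh38, the build the authors name.

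The paper calls the replicates of its sequenced RNA samples biological, but does not say whether they came from separate infections. The p-values thus measure the spread between these libraries. Alternatives were pseudocounts of 1 and 0.01, no filter, a mean of at least 5 TPM, median-ratio scaling, quantile normalization, a replicate block, limma without trend, an unmoderated linear model, a fold threshold of 1 on the log2 scale, and each library left out in turn.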

Additional observations from a re-analysis of the deposited data

How the results depend on the processing

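METTL16, PHGDH, PSPH and SHMT2 kept their direction and their call under all 13 alternatives run for them, and ALDH1L2 under the 12 that include it (-2.13 to -1.43), since a mean of at least 5 TPM removes it. MTHFD1 (-0.30 to -0.089) kept its call in 7 of 13 alternatives, MTHFD2 in 10 of 13, PSAT1 and SHMT1 in 12 of 13, and all kept their direction. With the fold threshold, 0 of the 10 enzymes were higher and 1 was lower, 922 and 451 of all genes, and 3 and 2 of the other serine and folate genes, whose settings were all chosen after seeing the data. With the unmoderated linear model, which has only 2 residual degrees of freedom a gene, 1 enzyme was higher and 3 were lower. Of all genes, 4049 were then higher and 1949 lower, and of the other serine and folate genes 10 were higher and 8 lower. Leaving out 1 library at a time left 5 to 7 enzymes lower and 1 higher, and 2600 to 2968 of all genes lower and 5212 to 5894 higher. The difference in log2 ratio of MTHFD1L to MTHFD1, METTL16 KO minus sgNS, turned to -0.022 under quantile normalization. When 1 library was left out, this difference ranged from -0.019 (without METTL16 KO replicate 1) to 0.083. The difference for MTHFD2 to MTHFD1 then ranged from -0.086 to 0.023 (without METTL16 KO replicate 2). The cause was not tested. The same difference for ALDH1L2 to ALDH1L1 has no value after quantile normalization, and ranged from -3.96 to -1.47 over the others.

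A replicate block on the number of the library left 1 enzyme higher and 7 lower, and 6048 of all genes higher and 3112 lower. Deviations of same-numbered libraries did not go together (Pearson r = -0.0445 across 11971 genes, which are not independent). With 2 libraries in each group this single correlation cannot show whether same-numbered libraries were handled together.

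Depth is unknown, so the precision of low values such as ALDH1L1 and ALDH1L2 cannot be given. Only 1 clone was sequenced, and the number of guides is not given. TPM values are shares of a total, so the fall of a gene near the median of all genes depends on the scaling.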

Other observations

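Liver-type genes shifted beside the enzymes. AFP, the fetal albumin relative, had 1737 and 1793 TPM in sgNS against 10387 and 10197 TPM in METTL16 KO (log2 fold change 2.54, adjusted p 3.1e-13 by limma). FGB, a chain of fibrinogen, had 358 and 370 TPM in sgNS against 1331 and 1276 TPM in METTL16 KO (1.84, adjusted p 8.7e-12). TF, the iron carrier transferrin, went the other way, from 2105 and 2039 TPM to 1559 and 1523 TPM (-0.43, adjusted p 1.2e-07). These genes were named after their values were seen.

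CBS, which joins serine to homocysteine, had 149.22 and 133.23 TPM in sgNS against 117.23 and 113.53 TPM in METTL16 KO (-0.29, adjusted p 3.9e-04 by limma). The table also lists CBSL, a near-identical copy, with 13.70 and 19.67 TPM in sgNS against 5.24 and 7.49 TPM in METTL16 KO, and reads could have been split between the 2 rows. AMT shares 353 exonic bases on the same strand with NICN1, which had 12.42 and 11.07 TPM in sgNS against 7.19 and 7.05 TPM in METTL16 KO. CBS, CBSL and NICN1 were also named after their values were seen.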
